A study of Mus musculus with 4 samples.

Results

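The regions described here are stretches of open chromatin that the deposited gene table linked to no gene. In the authors' merged list of 12477 regions, a region was taken when it held no peak of any library that the gene table names. On the autosomes this left 1471 of 12235 regions. Of the other autosomal regions, 7618 lay within 1000 bp of the start of a gene of the table and are called linked promoter regions, and 3146 lay farther away and are called linked distal regions. The choice used the link and no height. The table linked a gene to regions in it or up to about 10000 bp away, so every region without a link lay at least 10017 bp from the nearest gene body of the table, with a median of 52124 bp. The 3 regions just inside that limit lay 10017 bp from 1700010B13Rik, 10025 bp from BC005537 and 10041 bp from Coro1c. The 3 linked regions just outside it lay 9977 bp from Ankrd33, 9977 bp from 2310047D07Rik and 9951 bp from Slc38a2. A pair of autosomal linked regions, in Traf5 and in Maml2, lay 38654 and 67248 bp from the nearest body the table lists.

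The libraries came from frozen subcutaneous fat of wild-type mice, 2 male samples (male 1 and male 2) and 2 female samples (female 1 and female 2), all labelled WT, with no transgene or treatment named. The sources used here do not give age, strain or whether a sample was 1 animal or a pool, so the p-values below measure only the spread between these samples, which may be technical. Nuclei were treated with Tn5 transposase, which cuts and tags accessible DNA, in the assay called ATAC-seq. The value used throughout is the summit height of a peak, the scaled tag coverage at its highest point, and a region in which a library has no called peak has no height there, which is not a height of 0.

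Open chromatin marks DNA that is not wrapped tightly around nucleosomes and that proteins can reach. Promoters next to gene starts are often open in many cell types, whereas distal elements such as enhancers, insulators and unannotated starts are more often open in only some of them. A distal element can act on a gene far away along the chromosome, so that the nearest gene need not be the one it acts on. White fat holds adipocytes together with progenitors, endothelium and immune cells, and in whole tissue fewer cells of a type and less open chromatin per cell cannot be told apart.

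Of the 1471 regions, 93 overlapped a RefSeq start window, from 250 bp before to 50 bp after a transcript start. Their 107 windows belonged to 98 genes. Of the 93 regions, 85 covered only starts of genes with no row in the gene table, and 8 had a gene with a row. In 39 of the 93 the start was that of a coding gene, and in 54 that of long noncoding RNA genes only. The windows below were chosen because they lie under the tallest such region (Hdac4, a histone deacetylase), under that of a subunit of the insulin signalling kinase (Pik3ca), under the region with the most negative sex difference (Zfp286os, a noncoding RNA gene at the zinc finger gene Zfp286) and under the pair of starts with the highest mean height among those with a peak in both female libraries and in neither male library (Gm40491, a long noncoding RNA gene, and Lcor, a corepressor of nuclear receptors). They are RefSeq sequences of GRCm38.p6 (mm10), written along the gene. Capitals mark matches on either strand to GGGCGG (bound by SP and KLF factors), CCAAT (NF-Y), CCGGAAG (ETS), TGANTCA (AP-1) and TTGCNNAA (C/EBP), where N is any base. The C/EBP letters have no match in these 5 windows. Consensus letters of CTCF, NRF1 and the steroid receptor element were searched too and are also absent from them. Matches of different motifs may overlap.
Hdac4, chr1:92180292-92180591, minus strand: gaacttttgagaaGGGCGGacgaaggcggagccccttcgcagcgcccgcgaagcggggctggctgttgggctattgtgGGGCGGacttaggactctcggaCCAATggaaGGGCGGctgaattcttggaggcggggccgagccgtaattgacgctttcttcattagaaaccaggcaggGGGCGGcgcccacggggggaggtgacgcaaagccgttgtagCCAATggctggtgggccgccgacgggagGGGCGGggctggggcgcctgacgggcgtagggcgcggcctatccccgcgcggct
Pik3ca, chr3:32396815-32397114, plus strand: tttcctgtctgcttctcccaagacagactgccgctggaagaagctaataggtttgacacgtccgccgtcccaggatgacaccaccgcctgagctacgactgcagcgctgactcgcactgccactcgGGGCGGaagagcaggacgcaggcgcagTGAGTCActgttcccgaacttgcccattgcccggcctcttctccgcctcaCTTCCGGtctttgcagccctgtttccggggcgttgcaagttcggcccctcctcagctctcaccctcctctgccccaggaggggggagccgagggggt
Zfp286os, chr11:62756570-62756869, plus strand: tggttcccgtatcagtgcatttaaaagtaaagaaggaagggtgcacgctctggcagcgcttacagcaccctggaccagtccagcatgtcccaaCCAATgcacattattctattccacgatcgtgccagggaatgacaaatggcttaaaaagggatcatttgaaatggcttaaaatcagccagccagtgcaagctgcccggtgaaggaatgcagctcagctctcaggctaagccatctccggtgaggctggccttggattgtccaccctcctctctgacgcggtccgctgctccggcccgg
Gm40491, chr12:86833714-86834013, minus strand: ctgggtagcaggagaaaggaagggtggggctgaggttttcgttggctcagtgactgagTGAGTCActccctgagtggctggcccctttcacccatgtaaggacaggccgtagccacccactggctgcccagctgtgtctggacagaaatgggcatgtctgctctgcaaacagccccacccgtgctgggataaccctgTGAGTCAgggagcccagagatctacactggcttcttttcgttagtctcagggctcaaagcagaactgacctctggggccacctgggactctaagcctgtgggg
Lcor, chr19:41482432-41482731, plus strand: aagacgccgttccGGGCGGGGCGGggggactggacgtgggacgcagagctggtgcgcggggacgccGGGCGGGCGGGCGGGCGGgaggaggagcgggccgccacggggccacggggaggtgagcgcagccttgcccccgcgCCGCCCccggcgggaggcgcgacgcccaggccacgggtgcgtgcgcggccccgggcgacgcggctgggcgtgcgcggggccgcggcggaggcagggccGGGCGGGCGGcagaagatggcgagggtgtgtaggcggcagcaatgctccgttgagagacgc

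These windows differed in composition. That of Lcor was 81% G and C with 49 CpG pairs and 9 SP/KLF matches, and that of Hdac4 was 68% G and C with 32 CpG pairs, 5 SP/KLF matches and 2 NF-Y matches. The window of Gm40491 had 4 CpG pairs and 2 AP-1 matches. That of Zfp286os, with 12 CpG pairs, held 1 NF-Y match. The window of Pik3ca held 1 match each of the SP/KLF, ETS and AP-1 letters. Over the 107 windows under regions linked to no gene, the median was 57.3% G and C with 12 CpG pairs. The 7112 windows under linked promoter regions had a median of 63.3% and 24 CpG pairs, and all 32851 windows one of 52.7% and 7. SP/KLF letters were in 45.8% of the windows under regions linked to no gene, in 74.0% of those under linked promoter regions and in 35.7% of all windows. AP-1 letters were in 11.2%, 3.57% and 7.81% of these same sets, and C/EBP letters in 15.9%, 6.99% and 10.8%. In the 362 windows under linked distal regions, SP/KLF letters were in 63.0%, AP-1 letters in 7.73% and C/EBP letters in 10.8%. Long noncoding RNA genes owned 65 of the 107 windows under regions linked to no gene, against 63 of the 362 and 632 of the 7112, and the part of this in the shares was not tested. Over regions linked to no gene, linked promoter regions and all windows, NF-Y letters were in 45.8%, 42.9% and 37.4%, ETS letters in 14.0%, 23.4% and 8.86%, and NRF1 letters in 4.67%, 14.5% and 4.60%. The CTCF letters were in 7.48%, 3.21% and 2.43%, and the steroid element was in 0 of the 107 windows, 24 of the 7112 and 156 of all. Under linked distal regions, NF-Y letters were in 38.7% of the windows, ETS letters in 12.15%, NRF1 letters in 7.46% and CTCF letters in 1.38%. The steroid element was in 0 of those 362. These shares are descriptions of letters in the windows, and a match is not a bound site.

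The labelled tissue was checked against marker genes in the gene table. Of 10 white adipocyte markers 6 had a linked region (among them Pparg, Cebpa, Lipe and Cidec), and Adipoq, Fabp4, Lep and Plin1 had none. Their summed heights were 123 in male 1 and 82.6 in male 2, against 238.5 in female 1 and 210.4 in female 2. For 3 of 8 mammary epithelium markers with a region (Cldn3, Spint2 and St14) the sums were 14.1 and 7.34 in males, against 74 and 57.5 in females, while Elf5, Epcam, Krt8, Krt14 and Krt18 had no region. For 3 of 6 B cell markers they were 78.5 and 51.0 in males, against 130.5 and 114.7 in females, for 2 of 4 endothelial markers 24.7 and 20.6 against 49 and 34.5, for 1 of 4 macrophage markers 30.4 and 18.9 against 54 and 50.1, and for 1 of 4 skeletal muscle markers 24.0 and 17.6 against 70 and 50.1. For each of these lists both males had a lower sum than either female, as for most regions of the series. In proportion the gap was widest for the 3 mammary epithelium markers. The part of these lists in the results below was not tested. The autosomal regions with a peak numbered 5280 in male 1 and 3983 in male 2, against 9777 in female 1 and 7694 in female 2. The sources used here do not give the read depth.

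Most regions linked to no gene lay outside coding genes also in the fuller RefSeq annotation. In all, 655 (44.5%) lay over 10000 bp from any RefSeq gene body, and a further 311 (21.1%) lay within 10000 bp of a body without touching it. Inside bodies, and away from a start window, 283 lay in long noncoding RNA genes, 113 in coding genes and 16 in other genes. The coding genes among these hosts were ones whose body as listed in the deposited table did not reach the region or that had no row. The median distance to the nearest RefSeq coding gene body was 32325 bp, and 282 regions lay over 100000 bp away, up to 2137608 bp. Each autosome held some, from 19 of 399 regions (4.76%) on chromosome 19 to 78 of 462 (16.9%) on chromosome 13. Regions linked to no gene were narrow, with a median width of 140 bp, close to the 144 bp of linked distal regions and below the 245 bp of linked promoter regions.

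**Figure D1:**
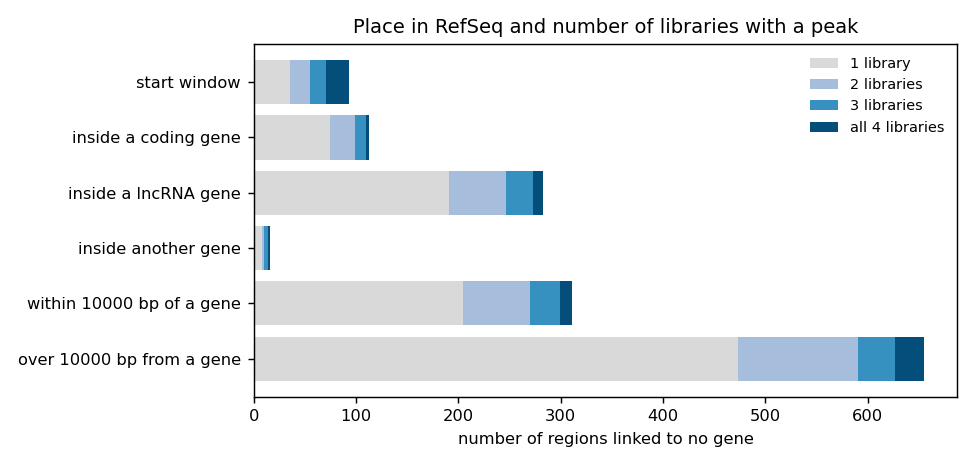
Number of regions linked to no gene (horizontal axis) by place in RefSeq (rows), with bar segments for the number of libraries that have a peak. The row of start windows is short, with 93 regions, but 22 of them have a peak in all 4 libraries, against 28 of the 655 regions over 10000 bp from any gene.

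A peak was called in a single library for 988 of the 1471 regions (67.2%), in 2 libraries for 284, in 3 for 122 and in all 4 for 77. The last count is 5.23% of the regions linked to no gene, against 20.0% of all autosomal regions, and against 5.69% of linked distal and 28.8% of linked promoter regions. Presence in all 4 libraries differed by place. It was found for 22 of 93 regions at a start window (23.7%), 10 of 283 in long noncoding RNA genes (3.53%), 3 of 113 in coding genes (2.65%) and 28 of 655 over 10000 bp from a gene (4.27%). Among linked distal regions, those at a start window were likewise in all 4 libraries in 21.3% of cases.

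Whether a region seen in female 1 had a peak elsewhere went with its height. Of the 54 regions linked to no gene with a height of at least 60 in female 1, 49 had a peak in male 1, 32 in male 2 and 52 in female 2. Of the 396 with a height from 20 to just under 30, 34 had one in male 1, 28 in male 2 and 114 in female 2. At like heights in female 1 the shares were below those of linked promoter regions in each height range, and their distance from linked distal regions varied. From 30 to just under 40, a peak in female 2 was found for 45.7% of the 234 regions linked to no gene, 46.7% of linked distal regions and 59.7% of linked promoter regions. In the same range a peak in male 1 was found for 19.7%, 20.3% and 42.5% of these sets, and a peak in male 2 for 11.1%, 10.98% and 30.5%. At a height of at least 60, a peak in male 1 was found for 90.7%, 79.4% and 94.0% of the sets. From 40 to just under 60, a peak in male 2 was found for 30.6%, 19.5% and 44.6%.

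The highest peaks among regions linked to no gene were higher than any at a linked promoter, where the highest of all was 133. Linked distal regions also passed that height, up to 253. The tallest region with a peak in all 4 libraries, at chr17:13305963-13306258 inside the noncoding RNA gene Gm36684, had heights of 183 in male 1 and 117 in male 2, against 298 in female 1 and 281 in female 2. A region at chr19:61266501-61267154, 7361 bp from the pseudogene Gm18999, had heights of 149.9 and 140.2 in males, against 268 and 209.6 in females. In both, each male was below each female. A region at chr9:3258822-3259081, 22456 bp from an olfactory receptor pseudogene, had 175 and 83.0 in males, against 281 and 191.5 in females. The next, inside the noncoding RNA gene Gm52725 on chromosome 4, had 126.5 and 103.5 in males, against 147 and 146 in females. These too were lower in both males.

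In 3 other tall regions the males were not both below the females. A region at chr11:3103929-3104270, 19732 bp from the pseudogene Pisd-ps1, had heights of 112 and 119 in males, against 101 and 112 in females, so that both males were slightly above both females. Its neighbour at chr11:3101133-3102537, 1405 bp wide, had 71.4 and 98.4 in males, against 59 and 85.5 in females, and the sexes overlapped. On chromosome 2 a region at chr2:3050082-3050698, 63526 bp from Fam171a1, had 74.9 and 68.3 in males, against 67 and 84.7 in females, also overlapping. The widest region, 1585 bp at chr9:124256380-124257964, had 63.6 and 61.0 in males, against 94 and 64.1 in females, and here both males were below both females.

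Several of these lay near the end of a chromosome's sequence. The sequence of a mouse autosome in this build begins after a long gap, and 28 regions linked to no gene lay within 500000 bp of the first base after it or of the end of the last RefSeq gene. Of these, 8 had a peak in all 4 libraries, with a median height of 76.2, against 36.7 for the other 69. Their median sex difference, male minus female on the log2(height + 9) scale, was -0.30, against -0.57 for the other 69.

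Some of the highest peaks were missing in other libraries. Among the 20 regions linked to no gene with the highest peak of any library, 10 had a peak in all 4 libraries, 6 in 3, 3 in 2 and 1 in a single library. All of the 20 highest linked promoter regions and 14 of the 20 highest linked distal regions had a peak in all 4. The highest value of all stood at chr11:25100078-25100203, 126 bp wide and 138385 bp from any RefSeq gene, with heights of 136 in male 1 and 301 in female 2 and no peak in male 2 or female 1. A region at chr9:110281250-110281368 in the noncoding RNA gene Gm39429 had 144 in male 1 and no peak in male 2, against 289 in female 1 and 211 in female 2. A region in Nkain3 at chr4:20191847-20191962 had 77 in male 1 and no peak in male 2, against 101 in female 1 and 103.6 in female 2. All 3 were under 130 bp wide and without a call in male 2, the library whose intervals at regions linked to no gene were widest, with a median of 234 bp against 124 to 141 bp in the other libraries. These regions were chosen after their values were seen, and the part of interval width in the missing calls was not tested.

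In each library, peaks at regions linked to no gene were lower than those at linked regions. Their median height was 23.3 in male 1 and 16.1 in male 2, against 27 in female 1 and 24.7 in female 2. Linked distal regions had medians of 26.2 and 17.6 in males, against 31 and 28.8 in females, and linked promoter regions 31.8 and 21.3 in males, against 43 and 37.0 in females. On the log2 scale the median of regions linked to no gene was below that of linked distal regions by 0.13 to 0.22 and below that of linked promoter regions by 0.40 to 0.67, in all 4 libraries. The gap was smaller where a peak was present in all 4 libraries. There the difference from linked promoter regions, regions linked to no gene minus linked promoter, was -0.12 in male 1 and -0.05 in male 2, against -0.13 in female 1 and -0.14 in female 2. Against linked distal regions it was -0.06 and 0.05 in males, against -0.08 and -0.14 in females, so its sign was not the same in all libraries.

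**Figure D2:**
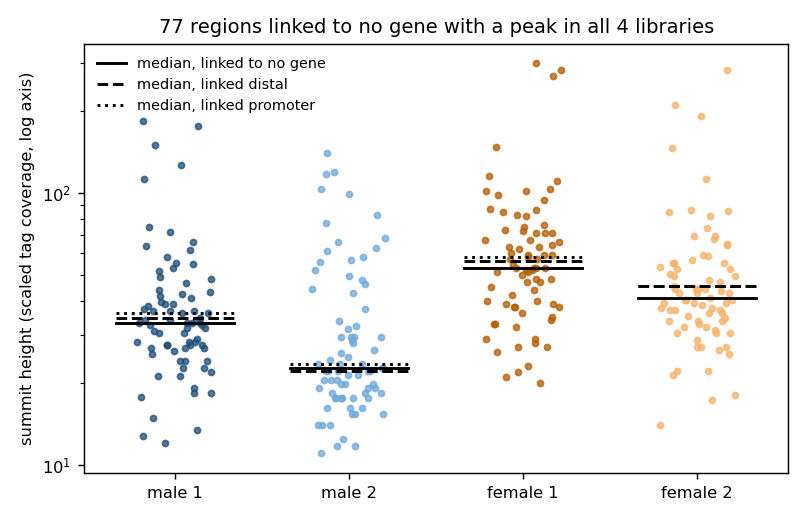
Summit height (log axis) in each library, males left of females, of the 77 regions linked to no gene with a peak in all 4 libraries; each point is a region, and lines are medians (solid, linked to no gene; dashed, linked distal; dotted, linked promoter, all with a peak in all 4; dashed and dotted lines coincide in female 2). The medians of the 3 classes lie close together in every library, and a few regions linked to no gene reach heights over 100.

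Regions linked to no gene made up a smaller share of the male libraries' peaks. They were 5.32% of the autosomal regions with a peak in male 1 and 5.95% in male 2, against 10.1% in female 1 and 9.45% in female 2. The means were 5.64% ± 0.444 in males and 9.76% ± 0.443 in females (SD, n = 2 each), and each male was below each female. The exact permutation test gave a two-sided p of 0.33, the smallest that 2 libraries against 2 allow. The same held for linked distal regions, with 13.7% and 12.2% in males, against 22.8% and 21.2% in females. For regions linked to no gene this order did not hold at equal numbers of regions. With the 3983 tallest regions of each library, the number found in male 2, the share of regions linked to no gene was 3.31% in male 1 and 5.95% in male 2, against 3.59% in female 1 and 4.27% in female 2. Male 1 was then lowest and male 2 highest. Linked distal regions kept the order of the sexes, with 10.8% in male 1 and 12.2% in male 2, against 12.7% in female 1 and 14.5% in female 2.

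**Figure D3:**
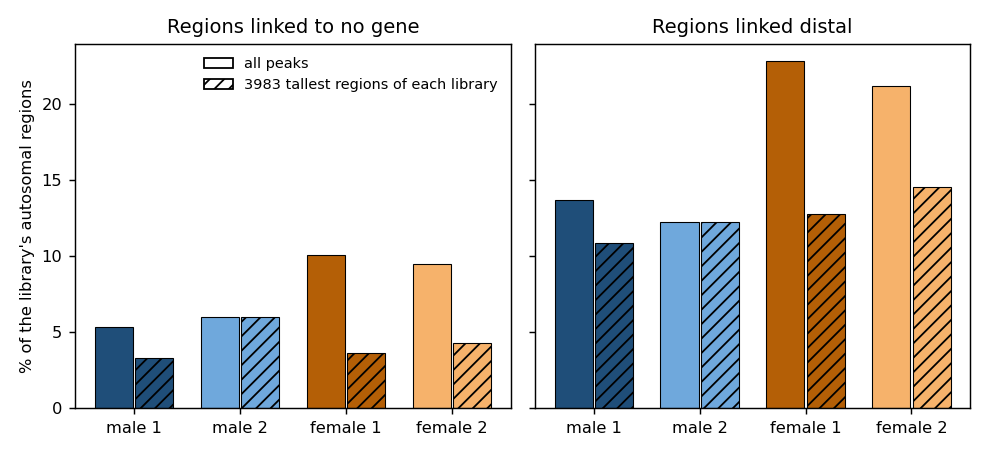
Share of each library's autosomal regions with a peak (vertical axis, %) that were linked to no gene (left) or linked distal (right), males left of females; plain bars use all peaks and hatched bars the 3983 tallest regions of each library. With all peaks both males lie below both females in both panels, and with equal numbers the shares of regions linked to no gene overlap between the sexes, while those of linked distal regions remain lower in both males.

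Heights of the 77 regions with a peak in all 4 libraries were compared between the sexes with limma, fitted over all 2478 such regions of the series with heights as log2(height + 9). Of these 2478, 2447 were autosomal and the rest lay on the sex chromosomes, which the other fits below included too. At a Benjamini-Hochberg adjusted p under 0.05, limma called 0 regions lower in males (0% of the 2478) and 0 higher (0%). At an unadjusted p under 0.05, 22 of the 77 were lower in males and 0 higher, against 761 (30.7%) lower and 0 (0%) higher of all 2478. The smallest limma adjusted p was 0.138, and limma without its trend called 1 of the 77 lower, against 88 of all 2478, or 3.55%. Without male 1, the males were a single library. The median difference, male minus female, was then -0.72 over 106 regions linked to no gene, against -0.85 over all 2888 regions. With regions that had a peak in at least 2 libraries and a missing peak imputed as 0, limma called 201 of 483 lower and 6 higher, against 21.8% and 0.757% of all 7401. Imputing 0 gives both libraries of a sex without a peak the same value, so these calls are not separate from peak presence. A peak in both females and neither male was found for 202 of the 1471 regions (13.7%, against 12.8% of all autosomal regions). In both males and neither female it was found for 6 (0.408%, against 0.458%). Both males were below both females for 55 of the 77 regions linked to no gene (71.4%), against 79.6% of all fitted regions. Both males were above both females for 2 of the 77, against 0.282% of all. The median difference, male minus female, was -0.56 for the 77, against -0.65 for all fitted regions, -0.67 for linked distal and -0.64 for linked promoter regions. With the libraries centred on their medians, the median of the 77 was 0.08 and limma called 0 regions in either direction, with 2 of the 77 lower and 8 higher at an unadjusted p under 0.05, against 2.95% lower and 4.80% higher of all 2478. By pairs of libraries, the median of the 77 relative to that of all was -0.02 and 0.00 for male 1 with each female, against 0.17 and 0.14 for male 2 with each female, so the offset was seen with male 2 and not with male 1.

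**Figure D4:**
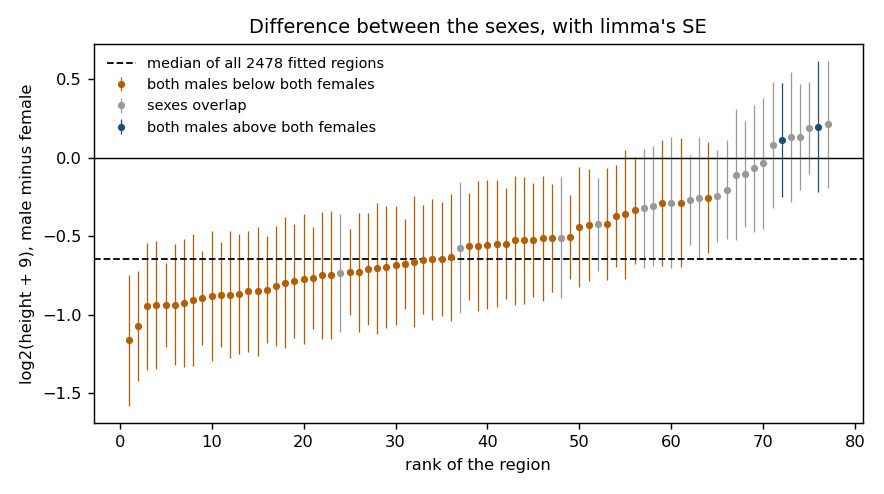
Difference in log2(height + 9), male minus female, for the 77 regions linked to no gene with a peak in all 4 libraries, ranked; points are regions, bars are limma's standard error, and the dashed line is the median of all 2478 fitted regions. The differences run from -1.16 to 0.21, 55 regions have both males below both females, and 2 have both males above. Of all fitted regions, 79.6% have both males below and 0.282% both above.

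At gene starts, no difference of a single region passed the threshold with limma's trend. Their median difference was -0.54, against -0.65 for all fitted regions. The region at Zfp286 and Zfp286os on chromosome 11, described above by its window, had heights of 43.8 in male 1 and 23.5 in male 2, against 85 in female 1 and 82.2 in female 2. Both males were lower. The difference on the log2(height + 9) scale was -1.16 with an SE of 0.42, the most negative of the 77, and its limma adjusted p was 0.138. The region at the start of Pik3ca, which encodes the catalytic subunit of a phosphoinositide 3-kinase, had 41 and 16.1 in males, against 71 and 49.3 in females, a difference of -0.95 (SE 0.40, limma adjusted p = 0.146). The male values here differed from each other by more than male 1 did from female 2.

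The tallest region at a start, that of Hdac4, had 53.0 and 62.4 in males, against 115 and 64.9 in females, so that male 2 and female 2 nearly met. Its difference was -0.52 (SE 0.41, limma adjusted p = 0.284). At Cic, a transcriptional repressor, heights were 65.7 and 46.3 in males, against 98 and 74.0 in females. At Numb, an adaptor protein that restrains Notch signalling, they were 55.1 and 37.4 in males, against 82 and 86.3 in females. Gatad2b, a subunit of the NuRD chromatin complex, had 51.6 and 27.9 in males, against 73 and 59.2 in females. Each of these was lower in both males. The start of the noncoding RNA gene D130051D11Rik had 42.4 and 58.0 in males, against 87 and 69.1 in females. Of the 22 regions at starts with a peak in all 4 libraries, 13 had both males below both females and 9 overlapped, with a median difference of -0.54. The other 55 had a median of -0.63, with 42 below, 11 overlapping and the 2 above. Of all 2478 fitted regions, 79.6% had both males below both females and 0.282% had both above.

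Away from starts, the most negative differences were at chr12:51844919-51845234 in the noncoding RNA gene Gm34894, at chr1:86487344-86487804, 13324 bp from Rpl30-ps6, and at the tallest region on chromosome 17. The region in Gm34894 had 21.2 and 11.7 in males, against 47 and 40.3 in females (difference -1.07, SE 0.35, limma adjusted p = 0.138). The region near Rpl30-ps6 had 36.1 and 22 in males, against 71 and 55.1 in females (difference -0.94, SE 0.41, limma adjusted p = 0.151). The tallest region had a difference of -0.94 (SE 0.27, limma adjusted p = 0.138). The 2 regions with both males above both females had small differences. That at chr17:13654660-13655203, 643 bp from the noncoding RNA gene Gm41530, had 61.5 and 56.5 in males, against 53 and 47.7 in females (difference 0.20, SE 0.42, limma adjusted p = 0.681). That on chromosome 11 had a difference of 0.11 (SE 0.36, limma adjusted p = 0.787).

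A peak in both males and in neither female was found for 6 of the 1471 regions, or 0.408%, against 0.458% of all autosomal regions. The tallest lay in Gm34296 at chr4:133813773-133814098, with heights of 21.9 in male 1 and 26.4 in male 2. Its neighbour in the same gene, at chr4:133813185-133813660, had a peak in all 4 libraries. That neighbour had 34.6 and 18.4 in males, against 47 and 46.9 in females. A region at chr5:113930985-113931233, nearest to the coding gene Ssh1, had 23.3 in male 1 and 15.4 in male 2. The other 4 had lower values. They lay in Gm33971 on chromosome 16 (19.1 in male 1 and 10.3 in male 2), 3422 bp from Gm26002 on chromosome 8 (18.4 and 10.3), in Gm31751 on chromosome 9 (13.4 and 12.5) and 37886 bp from Gm8984 on chromosome 5, where the nearest coding gene was Hgf (13.4 and 13.2).

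A peak in both females and in neither male was found for 202 of the 1471, or 13.7%, against 12.8% of all autosomal regions. These 8 had the highest lower value of the females. The region at the start of Gm40491, nearest to the coding gene Irf2bpl, had 51 in female 1 and 54.2 in female 2. Regions nearest to Adnp (52 and 51.0), Wnt7b (52 and 49.3) and Tbc1d16 (48 and 48.5) followed. Those nearest to Zbtb38 (63 and 45.2), Hint1 (46 and 44.4), Anapc16 (60 and 41.9) and Etf1 (43 and 41.9) completed the 8. All were taller than the 6 seen only in males, in libraries with higher median heights. With the 3983 tallest regions of each library, 6 of the 1471 were in both males and neither female (0.408%), against 1.95% of all autosomal regions. In both females and neither male there were 15 (1.02%), against 2.79% of all.

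The nearest coding gene was taken as the one whose RefSeq body lay closest, as a description of position. The 1471 regions had 1083 nearest genes, 5.24% of the 20665 autosomal coding genes, of which 820 had 1 region and 10 had 5 or more. Gse1, a chromatin-associated protein gene, had 10, of which 9 lay inside its RefSeq body. None of the 10 had a peak in a male library, and their heights ran to 61 in female 1 and 50.1 in female 2. Of the 1471 regions, 36.8% had a peak in female 1 only, 20.7% in female 2 only and 13.7% in both females only. Over all autosomal regions these shares were 23%, 10.4% and 12.8%. Irf2bp2, a transcriptional corepressor gene, had 7, of which 3 had a peak in 3 libraries. Among these, the region at chr8:126666381-126666583 had a height of 26.9 in male 1 and no peak in male 2, against 42 in female 1 and 35.4 in female 2.

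Genes of insulin signalling were near many of these regions. Of 19 such genes, 9 (47.4%) were nearest to at least 1 region, 24 regions in all. Foxo1, a transcription factor that insulin holds out of the nucleus, had 7, each with a peak in a single library, 51139 to 313306 bp from its body. Their heights were 11.7 in male 2 and 14.1 in male 1, against 14 to 42 in female 1 and 20.5 in female 2. Irs2, a docking protein of the insulin receptor, had 4. Its region at chr8:10946100-10946465, 38216 bp from the gene, had 27.6 and 19.8 in males, against 34 and 35.4 in females, and the other 3 had a peak in 1 library each. Trib1, a pseudokinase gene, also had 4, of which 1 had a peak in male 1 (14.8) and in both females (29 and 23.8), and 3 had a peak in both females only. Irs1, Pik3r1 and Trib2 had 2 each, and Igf1 and Pik3ca 1 each.

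Of 34 adipogenic transcription factors and cofactors, 10 (29.4%) were nearest to 19 regions. Klf4, an early factor of adipogenesis, had 7. The farthest, 581236 bp away at chr4:56113711-56114145, had heights of 25.4 and 18.4 in males, against 38 and 33.7 in females, with both males lower. A pair of adjoining regions about 118758 bp from Klf4 had no peak in males, against 35 and 27.9 in females, for the first, and 25 in male 2, against 24.7 in female 2, for the second. Tle3, a corepressor that works with PPARG, had 3, each with a peak in 1 female library. Klf6 had 2, and Cebpb, Ebf1, Ebf2, Klf3, Nfia, Nfib and Nr2f2 had 1 each. That of Ebf2, a factor of brown and beige fat, lay 44681 bp away with 33.9 in male 1 and no peak in male 2, against 44 and 27.9 in females. That of Cebpb lay 74704 bp away with no peak in males, against 38 and 38.6 in females.

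**Figure D5:**
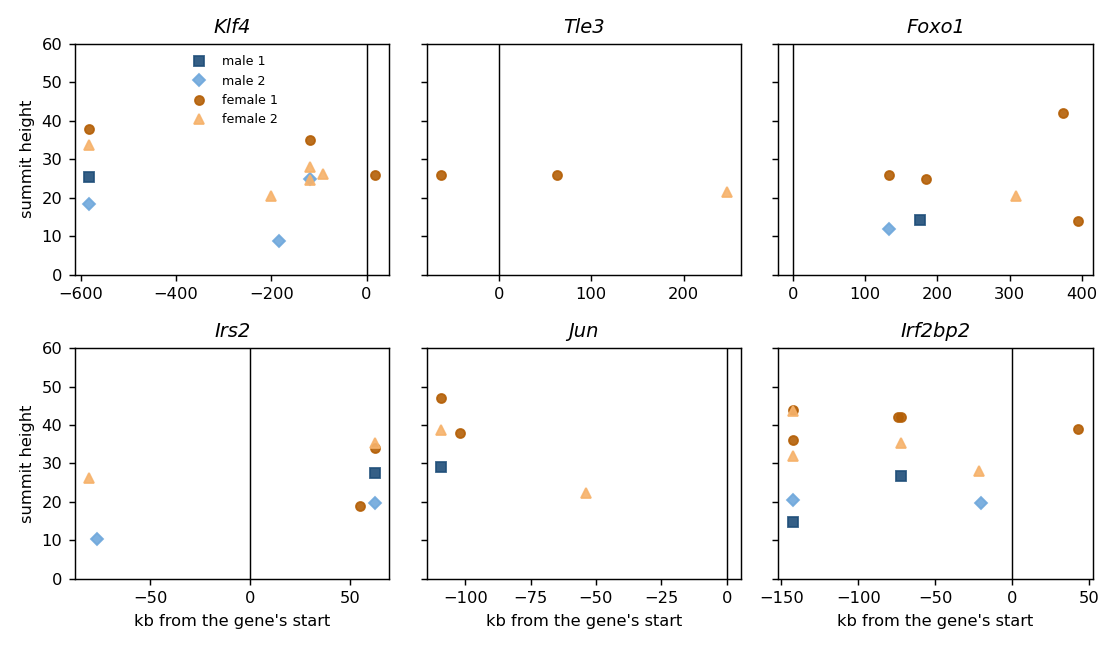
Summit height in each library of the regions whose nearest coding gene is Klf4, Tle3, Foxo1, Irs2, Jun or Irf2bp2, by distance of the region's centre from the nearest RefSeq start of that gene (kb, negative upstream; vertical line, the start). Squares and diamonds are males and circles and triangles females; most positions carry a point of 1 library only, while the farthest Klf4 region and the Irs2 region downstream carry all 4.

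Of 20 genes of adipocyte identity and products, 4 were nearest to 5 regions. Lep, which encodes leptin, had a region 14554 bp away with 22.2 in female 2 only, and Lpl, lipoprotein lipase, had one 14324 bp away with 31 and 18.1 in females only. Pparg, the main adipogenic factor, had one 21079 bp away with 31 in female 1 only, and Acsl1, an acyl-CoA synthetase, had 2 seen in female 1 only. Of 20 lipid synthesis genes, 5 were nearest to 6 regions. Inside Acaca, which encodes the acetyl-CoA carboxylase of fatty acid synthesis, a region at chr11:84179430-84179728 had 54.4 and 33.8 in males, against 83 and 69.1 in females, with both males lower (difference -0.70, SE 0.42, limma adjusted p = 0.188). Insig1, which holds back the sterol-regulated factors, had 2, and Elovl5, Lpin1 and Scd1 1 each. Of 20 thermogenic genes, 4 were nearest to 6 regions. These genes were Ppara, Zfp516, Letmd1 and Nr4a1. The region of Nr4a1, an orphan nuclear receptor, 7317 bp from the gene, had 37.5 and 25.7 in males, against 66 and 42.7 in females. Ppara had 1 seen in male 2 only (18.4) and 1 in female 2 only (41.1).

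Of 23 genes of AP-1 and immediate early factors, 8 (34.8%) were nearest to 13 regions. Jun had 3, of which that at 109084 bp had 29.0 in male 1 and no peak in male 2, against 47 and 38.6 in females, and Myc had 3, each with a peak in 1 library. Fos, a partner of Jun in AP-1, had 1. This region, 55410 bp away, had 13.9 in male 2 and no peak in male 1, against 24 and 22.2 in females. Of 20 endothelial and mural genes, 6 were nearest to 8 regions, among them Cdh5 and Sox17 with 2 each and Erg with 1, all with a peak in a single female library. Of 20 fibroblast and progenitor genes, 5 were nearest to 7 regions, with Cd34 and Thbs1 at 2 each and Dpp4 at 1. Of 19 clock genes, 4 were nearest to 1 region each (Bhlhe40, Hlf, Nfil3 and Npas2), and of 28 depot and patterning factors, 3 (Irx3, Meis1 and Osr1). Of 22 leukocyte genes, 2 (Cd3e and Pax5), of 23 mammary epithelium genes, 1 (Elf3), and of 11 autosomal Schwann cell and nerve genes, 1 (Mbp) had a region. None of 17 autosomal steroid receptor and metabolism genes and none of 12 skeletal muscle genes was nearest to one. Genes differ in how much intergenic sequence surrounds them, these shares were not adjusted for it, and no list was tested.

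Most regions linked to no gene stood alone. When close neighbours were joined into runs, with gaps of at most 12064 bp, 1176 of the 1471 were alone, 121 runs held 2, 15 held 3 and 2 held 4. A run of 4 spanned 3833 bp on chromosome 11 from base 3100438, near the end of the sequence, and included the tall pair described above. Of its other regions, 1 had 84.8 in male 1 and no peak in male 2, against 67 and 71.5 in females, and 1 had 22.6 and 38.9 in males, against 18.9 in female 2 and no peak in female 1. The other run of 4 spanned 17744 bp near Klf10, a factor of the KLF family, at chr15:38374003-38391746. Its first region had no peak in males, against 38 and 27.1 in females, and its second had a peak in male 2 only (17.6). The next had 24.0 in male 1 and no peak in male 2, against 37 and 27.1 in females, and its last had no peak in males, against 22 and 23.8 in females. Among the 15 runs of 3, the tallest region of a run had a mean height between 21.4, near Acbd3, and 94.5, near Olfr161.

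A tRNA gene was overlapped by 6 of the 1471 regions (0.408%), against 15 linked distal (0.477%) and 10 linked promoter regions (0.131%). That at n-TEttc7 at chr7:58398968-58399387, 256755 bp from the nearest coding gene, had heights of 27.6 and 22 in males, against 28 and 26.3 in females, which overlapped. It was the one of the 6 with a peak in all 4 libraries. The regions farthest from a coding gene included one at chr1:102628207-102628317, with 96.1 in male 1 and no peak in male 2, against 137 and 92.9 in females, and one at chr1:122357141-122357244, with 142 in female 1 only. Where all 4 libraries had a peak, their summits lay close together, with a median spread of 96 bp over the 77 regions linked to no gene, the same as over the 2370 autosomal linked regions.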

How the data were processed

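ATAC-seq libraries of 4 samples were analysed from the authors' deposited tracks and gene table. The submitters' processing notes name BWA, MACS2 2.1.0 and the build mm10. The sources used here do not state filters, duplicate removal or a Tn5 shift. Per the file headers, intervals and summits were given for each library, and merged regions over all 4. The deposited signal at a summit is tag coverage scaled by 1 factor per library, and the sources used here do not state what set that factor. All 27793 intervals lay within 1 merged region, and 25487 are named in the gene table. A library's height in a region is its highest summit there. The number of library columns left unused was 0.

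RefSeq bodies and starts (GRCm38.p6) placed the regions. The start table holds 27025 of the 49943 RefSeq genes and none on chromosome 18, so neighbours were taken by gene body in place of start. Heights were compared with limma 3.58.1 (R 4.3.3) with trend, as log2(height + 9), with no replicate block, over regions with a peak in all 4 libraries. This needs a peak in every library, so regions absent from a sex were not in the fit. The test was tried on simulated data with no shift between libraries. The differences set there were larger than any found here for regions linked to no gene, so the trial does not show how smaller ones are recovered. A height difference on this scale understates the change of low peaks. Groups were set by the labelled sex. Alternatives covered the pseudocount, filter, scaling, block, equal numbers of regions, overlap of 50% and each library left out.

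Regions were named by rule. They were the 10 tallest with a peak in all 4 libraries. Among those with a peak in all 4 and no overlap of the sexes, they were the 5 most different per direction (2 were higher in males). All 6 of both males only, 8 of both females only and 3 at each side of the distance limit were named. Some, not all, of the 5 widest, the 5 farthest from a coding gene and the 5 longest runs are described. Up to 3 genes per list were named by rule, and others were added after their values were seen. The members, gene lists and tests were chosen with earlier results of these data known. Python 3.11.15, pandas 2.3.3, numpy 2.4.6, scipy 1.17.1 and matplotlib 3.10.9 were used.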

Additional observations from a re-analysis of the deposited data

How the results depend on the processing

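No called count was stable across all settings. The count of regions linked to no gene called lower in males was 0 at pseudocounts of 1 and 36, with centred or quantile-normalized libraries and without low regions. It was 1 without limma's trend, 201 of 483 (with 6 higher) where a missing peak was set to 0 (1610 lower and 56 higher of all 7401), and 0 to 47 with each library left out, the 47 of 106 coming without male 1, where all 2888 regions gave 1583 (54.8%) lower and 8 higher. The replicate block gave 40 of the 77 and 1490 (60.1%) of all 2478. Over regions, same-numbered libraries did not deviate together (r = -0.03, which 2 libraries per sex make the same for both numbers), though in both sexes library 1 had more peaks and a higher median height; the labels name no shared source. The median difference was -1.49 with missing peaks as 0, 0.084 with centred libraries and 0.019 after quantile normalization; relative to all regions it was -0.39 with missing peaks as 0. It lay between -0.72 and -0.40 with each library left out, and between 0.01 and 0.14 relative to all. The difference in share, males minus females, was -4.13 percentage points and reversed to 0.70 with equal numbers of regions. Regions in both females and neither male numbered 15 with equal numbers (1.02%, against 2.79% of all regions), and 231 to 743 with each library left out; those in both males and neither female numbered 10 to 89, since fewer libraries then had to meet the condition. The height difference from linked distal regions was -0.057 in regions with a peak in all 4 libraries and -0.11 with means; from linked promoter regions it was -0.11 in regions with a peak in all 4. The causes of the other changes were not tested. Calls and heights rest on depths that are not given, and 2 libraries per sex limit every test.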
